A study of Arabidopsis thaliana with 36 samples.

Results

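Leaves of the Arabidopsis mutant ivd1-2 that had stayed in the day and night cycle were compared with leaves of both other genotypes, WT and hml1-2. The 12 libraries used are those tagged 0h (no prolonged darkness) and L3 (72 h more in the cycle), 4 of ivd1-2 against 8 of the other genotypes, out of 36 libraries in the series. The rule uses the labels only and no measured value. All plants were Arabidopsis thaliana, grown on soil for 5 weeks with 8 h of light and 16 h of dark a day, and rosette leaves 9 to 12 were taken. WT is the Columbia stock CS60000, and ivd1-2 and hml1-2 are each a single mutant line named for a gene of branched-chain amino acid (BCAA) catabolism, with the lesion itself not described in the labels. Each genotype had 2 libraries at 0 h and 2 after 72 h more of the cycle, and neither condition included prolonged darkness. The remaining 24 libraries came from plants kept dark for 6, 24, 48 or 72 h, and 8 of them are ivd1-2. The labels do not say whether the duplicates came from separate plants, and p-values therefore reflect only how these libraries vary, which may be technical.

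IVD encodes isovaleryl-CoA dehydrogenase, a mitochondrial flavoenzyme of leucine breakdown that hands its electrons through ETF and ETFQO to the respiratory chain. HML1 encodes hydroxymethylglutaryl-CoA lyase, which acts at the last step of the same branch. In leaves the pathway is best known for supplying respiration when carbohydrate runs short, as in long darkness, and its genes are weakly expressed in a normal day and night cycle. The comparison therefore asks what the ivd1-2 line differs in before that demand arises.

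Gene counts per light-cycle library ran from 13638597 to 38966865, and the ivd1-2 libraries lay inside that range, from 14028634 to 35657292. Between 19572 and 20802 genes had at least 1 count. Levels below are gene counts scaled to library size by TMM (CPM), and they are not adjusted for transcript length, so they are compared between libraries and not between genes. Markers of leaf mesophyll summed to 40100 to 47600 CPM in ivd1-2 and 35500 to 55500 CPM in the others, with none of the 5 genes at 0 in all libraries. The 5 flower markers summed to at most 1.06 CPM and the 5 root markers to at most 0.666 CPM in any of the 12 libraries, and 1 gene of each of those lists had no count at all.

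The comparison libraries did not form a uniform group. The first principal component of the 12 libraries held 59.5% of the variance. The 4 ivd1-2 libraries lay between 17.7 and 42.6 on it. Among the other 8, 3 replicate 1 libraries lay at 76.9 (hml1-2, 0 h), 48.4 (WT, 0 h) and 36.5 (hml1-2, 72 h), and the remaining 5 lay between -67.2 and -35.9. Of 18497 genes, 961 differed by more than 2 on the log2 scale between the replicates of hml1-2 at 0 h, 733 in WT at 0 h and 614 in hml1-2 at 72 h. The same count was 151 and 129 in the ivd1-2 groups at 0 h and 72 h and 75 in WT at 72 h. What the replicate number stands for is not given in the labels, so the main genes below are shown library by library. Other results are given as ranges, means or estimates, which can hide that split.

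At an adjusted p under 0.05 (edgeR's quasi-likelihood test with the condition as a block, Benjamini-Hochberg adjustment over 18497 genes), 1 gene rose in ivd1-2 (0.00541%) and 1 fell (0.00541%), together 0.0108% of the genes tested. The gene that fell was IVD, and the gene that rose was MRD1. At an unadjusted p under 0.05 there were 359 genes, 1.94% of those tested. Evenly spread p-values would put a share of 0.05 of the genes there, so this count is no sign of further differences. Nor does the lack of passing genes show that levels were equal, because the fitted spread includes the split among the comparison libraries. DESeq2's Wald test called 4 genes (0.0216%), adding HEI10 and DML1 to the same pair.

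**Figure D1:**
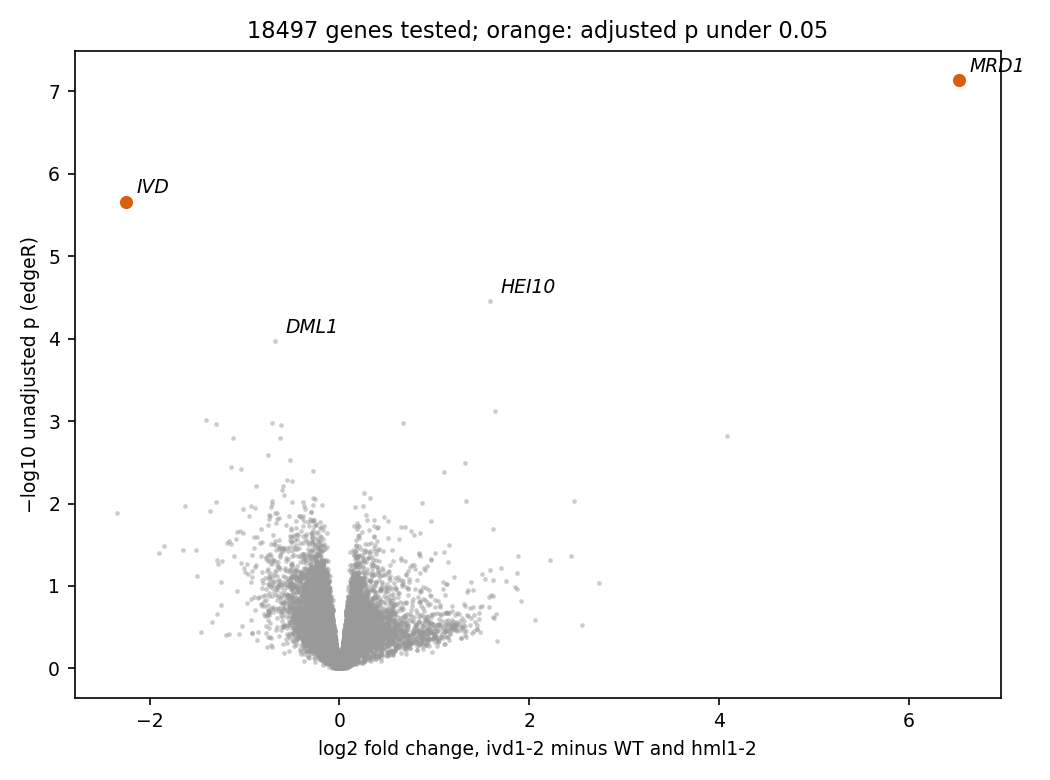
Log2 fold change of ivd1-2 against WT and hml1-2 (horizontal axis) and the negative log10 of the unadjusted p from edgeR (vertical axis) for 18497 genes, with 1 grey point per gene and orange for an adjusted p under 0.05. MRD1 at 6.52 and IVD at -2.25 are the 2 orange points, and HEI10 and DML1 are the next highest.

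IVD was low in all 4 ivd1-2 libraries. Its level was 3.29 and 6.50 CPM at 0 h and 2.33 and 5.86 CPM at 72 h, in replicates 1 and 2. The others had 22.6 and 22.7 CPM (WT) and 30.5 and 19.7 CPM (hml1-2) at 0 h, and 15.1 and 19.7 CPM (WT) and 18.4 and 20.9 CPM (hml1-2) at 72 h. The groups did not overlap, and the ivd1-2 mean of 4.49 ± 2.00 CPM (SD, n = 4) was 21.2% of the mean of the others, 21.2 ± 4.47 CPM (n = 8). The log2 fold change was -2.25 with a standard error of 0.262 and an adjusted p of 0.0202 (edgeR). It was -2.31 (SE 0.390) at 0 h and -2.19 (SE 0.384) at 72 h. The transcript was thus reduced but still counted in every ivd1-2 library, with 82 to 150 reads per library. Within ivd1-2, both replicate 1 libraries were lower than both replicate 2 libraries. The size of the IVD difference hardly depended on any 1 library, with -2.55 to -2.05 when each was left out, but the adjusted p did, and it stayed under 0.05 in 4 of 12 such fits. It was 0.0943 and 0.0563 without replicate 1 or 2 of ivd1-2 at 0 h, and 0.0509 without replicate 1 of ivd1-2 at 72 h. It was 0.0608 and 0.0519 without replicate 1 or 2 of WT at 0 h, 0.0683 without replicate 2 of WT at 72 h, and 0.121 and 0.0677 without replicate 1 or 2 of hml1-2 at 72 h.

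HML1, the gene that names the other mutant, was not low in ivd1-2. The ivd1-2 libraries had 91.3, 92.0, 91.8 and 103 CPM and the WT libraries 81.9, 95.8, 95.7 and 105 CPM, against 49.6 to 71.2 CPM in hml1-2. The hml1-2 libraries lay below all the others, with a log2 difference from WT of -0.66 (SE 0.0935, adjusted p = 0.114, edgeR) that did not pass. At each of the 2 genes, the line named for it held the lowest libraries.

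The genes beside IVD were looked at next, because the annotation places them directly before and after it. MLO3, the neighbour on one side, encodes a seven-transmembrane protein of the family named for the barley mildew resistance locus. Its level was 2.98, 4.77, 5.45 and 4.85 CPM in ivd1-2 and from 1.92 to 10.6 CPM, with a median of 5.32, in the others. The groups overlapped, with a log2 fold change of -0.25 (SE 0.399). AT3G45310, a cysteine proteinase gene on the other side, had 17.7 to 22.8 CPM in ivd1-2 and 17.43 to 28.7 CPM in the others, with a log2 fold change of -0.00 (SE 0.117). AT3G45285 and AT3G45320, the next genes outwards, did not pass the filter on low counts. In the light cycle, the difference in ivd1-2 at this place was therefore called for IVD and for neither neighbour.

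MRD1 (AT1G53480) was named in Arabidopsis as a transcript that falls in mto1, a mutant that overaccumulates methionine. It was counted in every ivd1-2 library, with 43 and 12 reads at 0 h and 38 and 11 reads at 72 h, or 1.198, 0.830, 1.08 and 0.430 CPM. In the other 8 libraries it had 1 read in all, in replicate 1 of hml1-2 at 72 h. Pooled over libraries and scaled for depth, the 104 reads of ivd1-2 against 0 in WT made it at least 35.1-fold higher than WT, with a floor of 3 counts over the group. Against hml1-2, with 1 read, the ratio was 88.2 (95% exact interval 15.5 to 3520, which covers counting error only). The adjusted p was 0.00136 (edgeR), and the fitted log2 fold change of 6.52 depends on the prior count and is not a measure of size. The call was lost without replicate 1 of hml1-2 at 72 h (adjusted p = 0.860, edgeR), the library with the single read, and it held without each of the other 11. In the fit without that library the comparison group had no read of MRD1, and the fitted log2 fold change was 7.54. The lost call thus did not go with a smaller estimate.

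HEI10 (AT1G53490), a RING-finger protein known for promoting class I meiotic crossovers, lies at the same place. In ivd1-2 it had 0.947, 1.38, 0.823 and 0.860 CPM, and in the others 0.157 to 0.382 CPM, with a median of 0.364. The groups did not overlap, and the ivd1-2 mean of 1.00 ± 0.258 CPM was 308% of that of the others, with a log2 fold change of 1.58 (SE 0.245) that missed the threshold in edgeR (adjusted p = 0.216). In the reference annotation MRD1 and HEI10 lie on opposite strands and share 1446 bases of the 1666 in MRD1. The libraries were made with a stranded kit per the labels, but which strand was counted is not stated, and reads of the pair cannot be told apart with certainty.

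DML1 (also known as ROS1), a DNA glycosylase that removes methylated cytosine, had the fourth smallest p. Its level was 30.7, 25.4, 39.7 and 30.5 CPM in ivd1-2 and 42.1 to 64.4 CPM, with a median of 50.6, in the others. The highest ivd1-2 library stayed just below the lowest of the others. The log2 fold change was -0.68 (SE 0.119, adjusted p = 0.494 in edgeR), and the value did not pass.

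**Figure D2:**
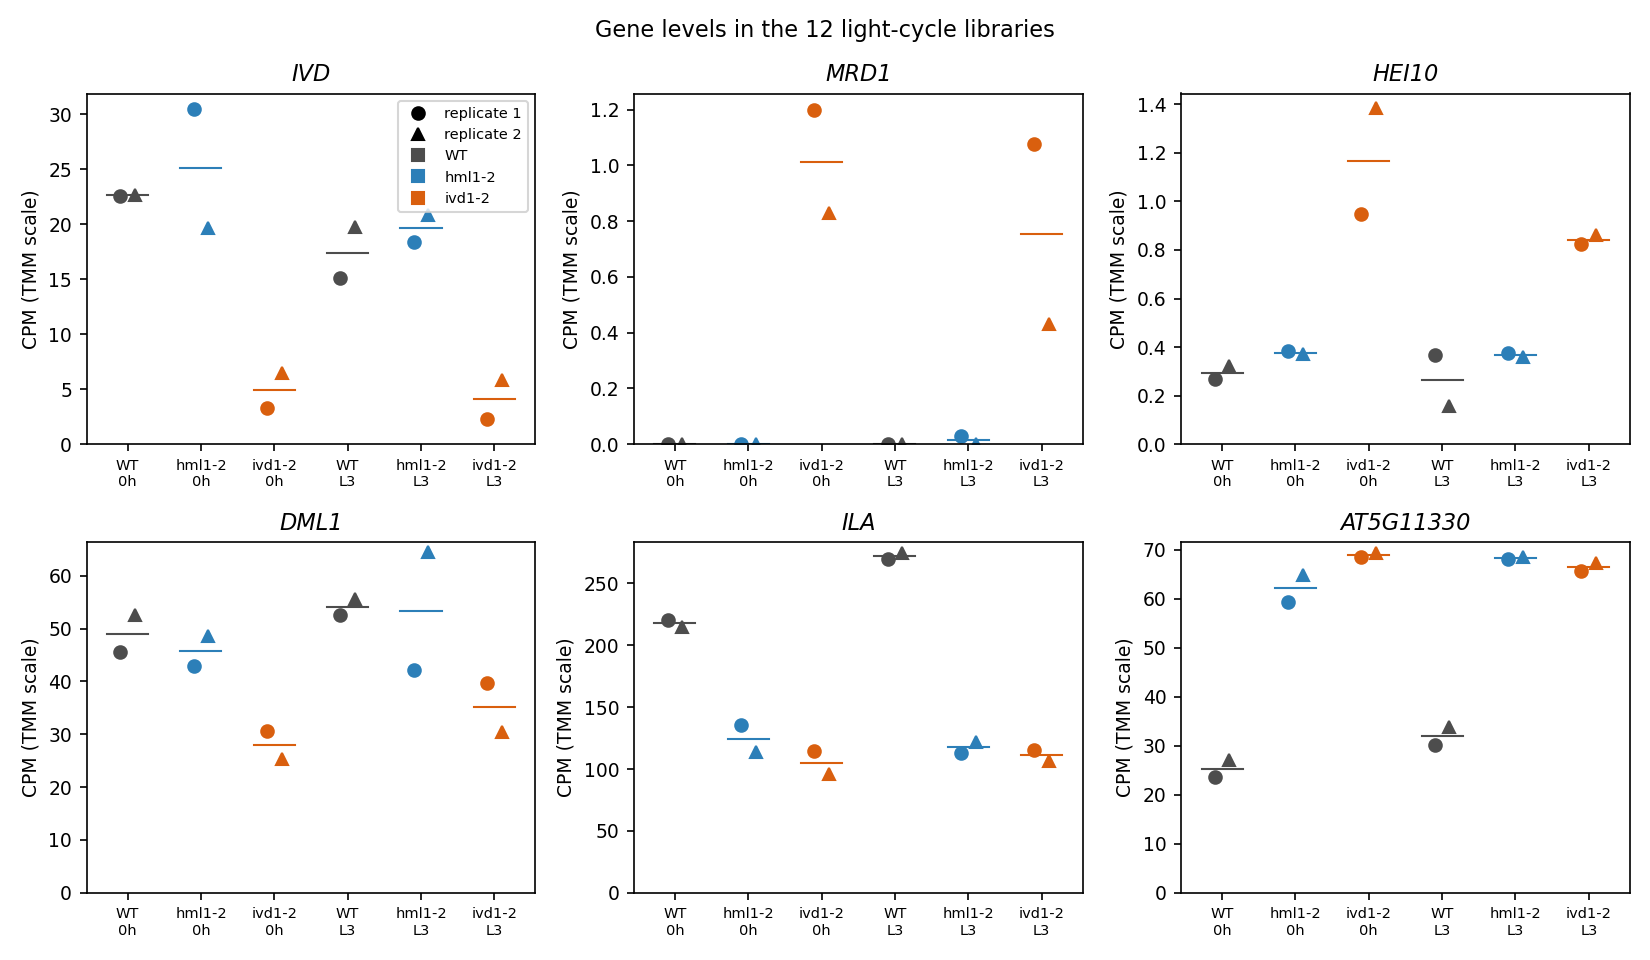
Levels of 6 genes in the 12 light-cycle libraries, in CPM on the TMM scale from 0 (vertical axes), by genotype and condition (horizontal axes), with 1 symbol per library and a line at the mean of each pair. IVD and DML1 lie lower and MRD1 and HEI10 higher in ivd1-2 than in every other library, while ILA and AT5G11330 have like levels in ivd1-2 and hml1-2 and set both apart from WT.

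The other genes among the 10 with the smallest p did not pass (adjusted p = 0.984 each, edgeR). AT1G15125, a methyltransferase family gene, had 17.2 to 26.0 CPM in ivd1-2 and 9.32 to 20.4 CPM in the others, with a log2 fold change of 0.67 (SE 0.154). UMAMIT31, a transporter gene of the nodulin-21 type, had 3.60 to 4.82 CPM against 5.28 to 8.98 CPM. AT2G13550, of unknown function, had 1.19 to 1.80 CPM against 2.102 to 3.10 CPM, and of these 3 genes AT1G15125 was the only one whose groups overlapped. AT1G77960 had a mean of 1.38 CPM in ivd1-2 against 3.41, AT3G27970, an exonuclease family gene, 0.217 against 0.574, and AT1G76530, of the auxin efflux carrier family, 1.29 against 0.396, with overlapping libraries in each.

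Over all genes tested, 5 had the 4 ivd1-2 libraries above all 8 others (0.027%) and 19 had them below (0.103%). Random assignment of libraries to the groups would on average give larger shares, so non-overlap of a gene is not evidence by itself. The 5 genes above were MRD1, HEI10, AT1G21920, AT3G15070 and CID4, and the last 3 were named after their values were seen. Their log2 fold changes were small, at 0.26 (AT1G21920), 0.16 (AT3G15070) and 0.10 (CID4). IVD, DML1, UMAMIT31 and AT2G13550 were among the 19.

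Set against WT alone, in a model with the 3 genotypes, ivd1-2 differed at 2 genes of 18497 (0.0108%), AT5G11330 and ILA. The comparison of hml1-2 with WT, which uses the same WT libraries, also called 2 genes (0.0108%), again AT5G11330 and ILA. Left-out libraries moved the second count to 1 without replicate 2 of hml1-2 at 0 h, without either hml1-2 library at 72 h or without either WT library at 72 h. AT5G11330, an FAD-dependent oxidoreductase gene, had 68.4, 69.3, 65.6 and 67.2 CPM in ivd1-2 and 59.4, 64.9, 68.2 and 68.4 CPM in hml1-2, against 24, 27.1, 30.1 and 33.9 CPM in WT. Both mutants lay above WT in every library, with log2 differences of 1.25 (SE 0.0931, adjusted p = 0.000933, edgeR) for ivd1-2 and 1.19 (SE 0.0929, adjusted p = 0.00147) for hml1-2. ILA encodes ILITYHIA, a HEAT-repeat protein of the GCN1 type that acts with the kinase GCN2. Its level was 114, 95.8, 116 and 106 CPM in ivd1-2 and 136, 113, 113 and 122 CPM in hml1-2, against 221, 215, 270 and 275 CPM in WT. Both mutants lay below WT in every library, with log2 differences of -1.18 (SE 0.105, adjusted p = 0.00292, edgeR) and -1.01 (SE 0.105, adjusted p = 0.0127). The difference between ivd1-2 and hml1-2 was 0.06 (SE 0.0913) for AT5G11330 and -0.17 (SE 0.104) for ILA. In the pooled comparison neither passed in the fit of the 12 libraries. With all 36 libraries in the fit both did, AT5G11330 at 0.66 (adjusted p = 0.00824, edgeR) and ILA at -0.66 (adjusted p = 0.0497), and with IVD and MRD1 they were the 4 genes called there (0.0206%).

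Against hml1-2 alone no gene passed in edgeR, and 219 had an unadjusted p under 0.05 (1.18%). With the replicate number as a block 2 genes passed (0.0108%). DESeq2 called 5 genes there (0.027%), IVD, MRD1, HML1, MAF5 and AT1G76820, the last 2 named after their values were seen. IVD was at -2.17 (SE 0.291, adjusted p = 0.0927) against WT and -2.33 (SE 0.292, adjusted p = 0.150) against hml1-2. MRD1 did not pass against either alone (adjusted p = 0.152 and 0.423, edgeR). Within 0 h no gene passed in edgeR (178 at an unadjusted p under 0.05, 0.962%), and DESeq2 called IVD and MRD1 (0.0108%). Within 72 h no gene passed in edgeR (783 at an unadjusted p under 0.05, 4.23%), and DESeq2 called IVD (0.00541%). Nor did any gene pass, in edgeR or in DESeq2, the test of whether the difference itself changed between 0 h and 72 h, with 401 genes at an unadjusted p under 0.05 (2.17%).

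In the leucine, isoleucine and valine breakdown pathway, IVD was the only 1 of 21 genes tested that passed. The estimates of the 21 genes had a median of 0.03, against -0.01 over all genes tested, with 14 above 0 and 7 below. MCCA and MCCB, the subunits of methylcrotonyl-CoA carboxylase that acts directly after IVD, were at -0.13 (SE 0.305) and 0.03 (SE 0.125) on the log2 scale. MCCA had 36.2 to 61.0 CPM in ivd1-2 and 31.2 to 81.4 CPM in the others. ETFQO, which takes the electrons IVD releases, had 23.64 to 30.7 CPM in ivd1-2 and 22.1 to 34.0 CPM in the others, with a log2 fold change of -0.07 (SE 0.135). E1A1, a subunit of branched-chain ketoacid dehydrogenase one step before IVD, was at 0.34 (SE 0.230). BCAA synthesis had 0 of 15 genes passing and a median of -0.12. Its smallest p belonged to BCAT3, a plastid aminotransferase, with 42.3 to 52.0 CPM in ivd1-2 and 48.4 to 62.0 CPM in the others and a log2 fold change of -0.25 (SE 0.0914). Catabolism of other amino acids had 0 of 20 passing and a median of 0.00.

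Genes of salicylate defence varied widely between libraries, and none of them passed. Salicylate is made through isochorismate synthase ICS1 (EDS16 in the annotation), the EDS1 module controls its accumulation, and PR1 is a standard output. EDS16 had 63.7 and 64.7 CPM in ivd1-2 at 0 h and 52.3 and 121 CPM at 72 h. It had 172 CPM in replicate 1 and 20.2 CPM in replicate 2 of hml1-2 at 0 h, 92.1 and 19.1 CPM in WT at 0 h, 74.0 and 21.4 CPM in hml1-2 at 72 h, and 20.4 and 18.21 CPM in WT at 72 h. All 4 ivd1-2 libraries were thus above the 5 low libraries of the others and inside or below the range of the 3 high ones. The log2 fold change was 0.64 with a standard error of 0.644 (adjusted p = 0.984, edgeR).

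PR1 followed the same split. Its level was 61.7, 35.1, 24.7 and 81.7 CPM in ivd1-2. In replicate 1 of the others it was 158 CPM (hml1-2, 0 h), 91.7 CPM (WT, 0 h), 27.7 CPM (hml1-2, 72 h) and 2.43 CPM (WT, 72 h), and in their replicate 2 libraries between 0.0314 and 0.162 CPM. The groups overlapped, and the log2 fold change of 1.48 had a standard error of 1.56. FMO1, which makes the systemic immune signal N-hydroxypipecolate, had 5.21, 2.14, 14.2 and 18.8 CPM in ivd1-2. It had 24.8, 15.0 and 15.1 CPM in the 3 high libraries of the others and at most 0.0527 CPM in the remaining 5. EDS16, PR1 and FMO1 are named because of these values and not by the rule for named genes.

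The whole lists showed the same arrangement. In the salicylate list 20 of 21 estimates were above 0, with a median of 0.54 and none passing, and the mean log2 CPM was 4.39 to 5.19 in ivd1-2. It was 5.85, 5.09 and 4.75 in the 3 high libraries of the others and 2.07 to 2.74 in the remaining 5. The pipecolate and PR list had 14 of 16 estimates above 0 and a median of 0.91, the defence WRKY factors 18 of 19 and 0.52, the cysteine-rich receptor-like kinases 19 of 20 and 0.82, and the pattern recognition genes 17 of 19 and 0.24. ER folding genes had 14 of 14 above 0 and a median of 0.22, and NLR immune receptors 14 of 14 and 0.17. In all 7 lists 0 genes passed. The medians moved with single libraries. That of the salicylate list ran from 0.143 without replicate 2 of ivd1-2 at 72 h to 0.91 without replicate 1 of hml1-2 at 72 h, and that of the pipecolate and PR list from 0.486 to 2.43 without the same libraries. With each library left out in turn, the median of the WRKY factors ran from 0.187 to 0.983, of the receptor-like kinases from 0.357 to 1.29, of the pattern recognition genes from 0.127 to 0.371, of the NLR receptors from 0.0998 to 0.25 and of the ER folding genes from 0.063 to 0.493. Over all 18497 genes 8643 estimates were above 0, with a median of -0.01. CRT3, a calreticulin needed to fold immune receptors in the ER, had 213, 154, 217 and 301 CPM in ivd1-2 against 46.4 to 505 CPM in the others, with a median of 61.6. DMR6, a salicylate hydroxylase, had 48.5 to 130 CPM in ivd1-2 against 6.76 to 191 CPM. PR5, a thaumatin-like defence protein, had 55.2 to 130 CPM against 2.23 to 234 CPM.

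**Figure D3:**
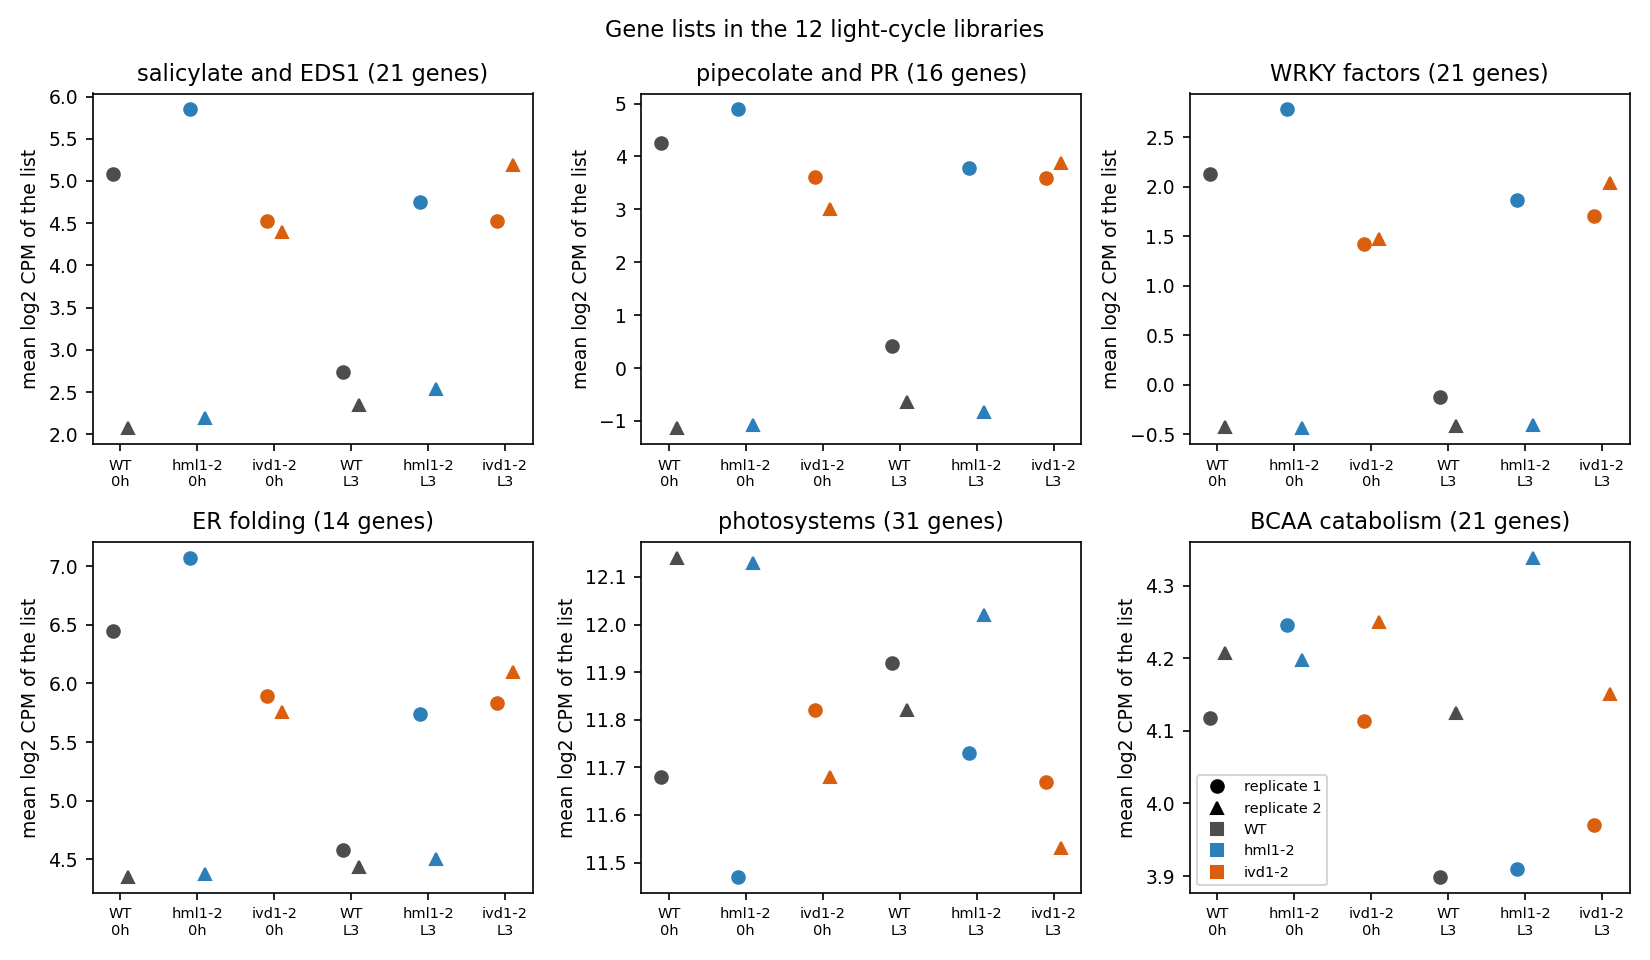
Mean log2 CPM of 6 gene lists (vertical axes) in the 12 light-cycle libraries by genotype and condition (horizontal axes), with 1 symbol per library. In the 4 defence and ER panels the ivd1-2 libraries sit with the 3 high replicate 1 libraries of WT and hml1-2, in the photosystem panel that order is turned round, and in the BCAA catabolism panel the genotypes overlap.

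The replicate numbers were then used to compare libraries of the same number, a choice made after the component above had set 3 replicate 1 libraries apart. All replicate 2 libraries of WT and hml1-2 lay at the low end of that component, so the outcome for defence and photosystem genes was fixed by the choice. The counts and p-values in this paragraph describe those same libraries and are no independent evidence. With the 6 replicate 2 libraries alone, 2362 of 18007 genes were higher in ivd1-2 (13.1%) and 1389 lower (7.71%), together 20.8% in edgeR, among them 20 of 21 salicylate genes higher and 31 of 31 photosystem genes lower. PR1 was then at 9.67 (SE 0.238, adjusted p = 1.38e-09) and EDS16 at 2.25 (SE 0.165, adjusted p = 3.14e-06) on the log2 scale. With the 6 replicate 1 libraries alone no gene of 18850 passed in edgeR, and 642 had an unadjusted p under 0.05 (3.41%). PR1 was then at -0.07 (SE 0.926) and EDS16 at -0.40 (SE 0.595). The test of whether the ivd1-2 difference itself depended on the replicate number passed for no gene in edgeR, with 3526 at an unadjusted p under 0.05 (19.1%), while DESeq2 called 716 (3.87%), among them PR1, EDS16, FMO1, IVD (1.2, adjusted p = 0.0103) and DML1 (-0.58, adjusted p = 0.041). IVD was at -2.92 (SE 0.187, adjusted p = 0.139) in replicate 1 and -1.72 (SE 0.114, adjusted p = 1.46e-06) in replicate 2, low in both. MRD1 had an adjusted p of 0.920 in replicate 1 and 0.00405 in replicate 2. Of 8 defence genes, PR1, EDS16, FMO1 and SAG101 had estimates below 0 in replicate 1, and PR5 (0.57), DMR6 (0.39), WRKY75 (1.26) and CRT3 (0.04) had estimates above 0, with none passing. In replicate 2 all 8 passed and were higher in ivd1-2.

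Photosynthesis genes had small estimates, all in one direction, and none passed. The 31 light-harvesting and photosystem genes were all below 0, with a median of -0.20 and a range from -0.29 to -0.11. PSBY, a small photosystem II subunit, had 1454, 1075, 1236 and 980 CPM in ivd1-2 and 1163 to 1795 CPM in the others, with a log2 fold change of -0.28 (SE 0.143). The Calvin cycle had 16 of 16 below 0 and a median of -0.17, and PGK1, the plastid phosphoglycerate kinase, had 1354 to 1829 CPM against 1529 to 1997 CPM. In both lists the ivd1-2 libraries overlapped the others. The 3 libraries of the others that were highest in the defence lists had a mean log2 CPM of 11.5 to 11.7 in the photosystem list, and the remaining 5 had 11.8 to 12.1.

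**Figure D4:**
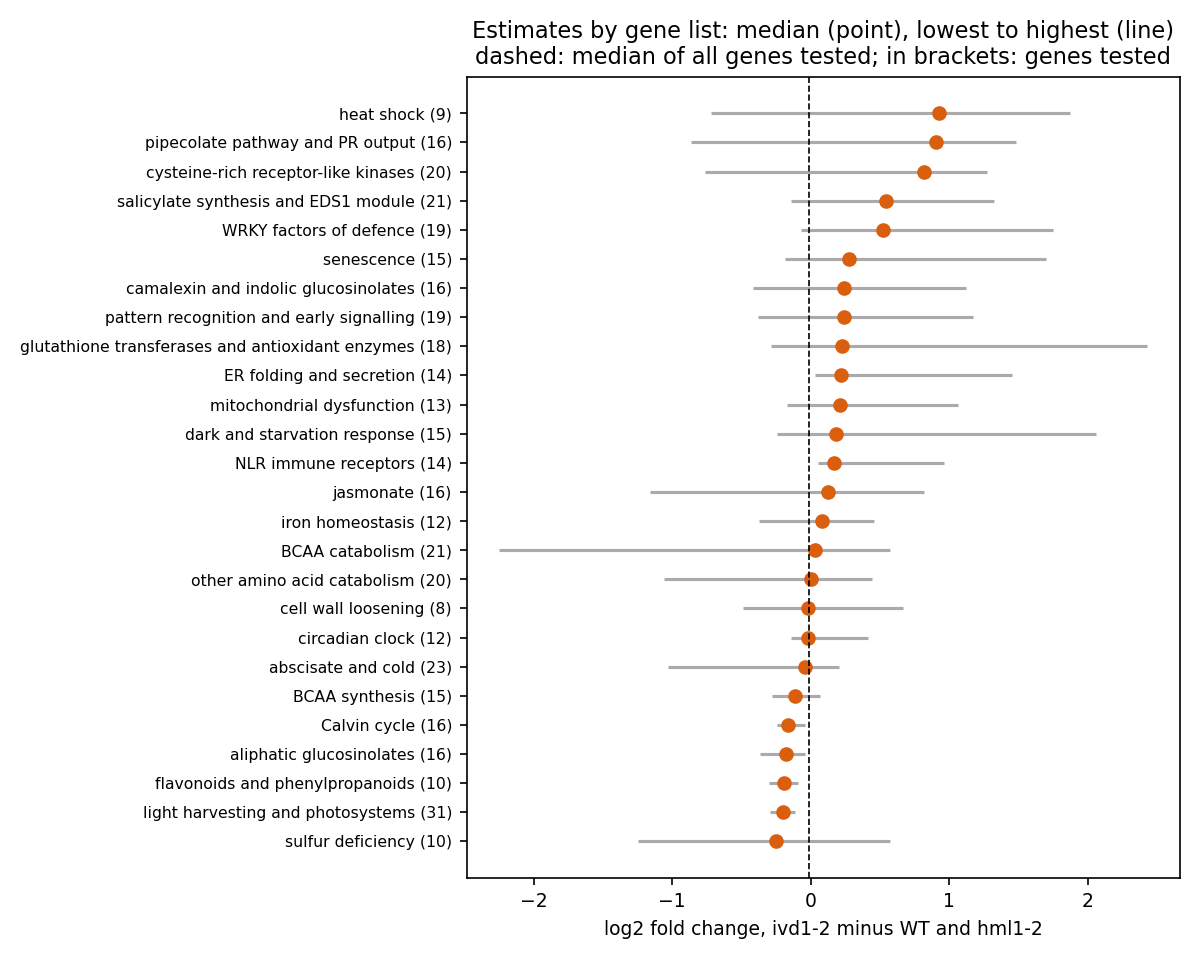
Log2 fold changes of ivd1-2 against WT and hml1-2 in 26 gene lists (horizontal axis), with a point at the median, a line from the lowest to the highest member and the number of genes tested in brackets. Heat shock (0.93), pipecolate and PR (0.91), receptor-like kinases (0.82), salicylate (0.54) and WRKY factors (0.52) have the highest medians, sulfur deficiency (-0.25) and photosystems (-0.20) the lowest, and IVD is the far left end of the BCAA catabolism line.

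In the remaining lists no gene passed either. Genes of darkness and starvation had 13 of 15 estimates above 0 and a median of 0.18. TPS11, a trehalose phosphate synthase family gene of sugar starvation, had 154, 196, 187 and 171 CPM in ivd1-2 and 111 to 180 CPM in the others. ASN1, the dark-induced asparagine synthetase, had 26.9 to 81.8 CPM in ivd1-2 against 8.69 to 245 CPM, and in WT and hml1-2 replicate 1 lay below replicate 2 in both conditions. Senescence genes had 12 of 15 above 0 and a median of 0.27, which ran from 0.106 to 0.396 with each library left out in turn. They too were high in the 3 replicate 1 libraries that were high in the defence lists. Their mean log2 CPM was 3.358, 3.092 and 2.424 there, 1.608 to 1.851 in the remaining 5 libraries of the others and 2.628 to 2.858 in ivd1-2. The clock had a median of -0.02, and PRR7, a clock repressor, had 25.02 to 44.9 CPM against 16.5 to 33.5 CPM.

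Stress and redox lists had medians above 0 that moved with single libraries. Mitochondrial dysfunction genes had a median of 0.21 (10 of 13 above 0). NDA1, an alternative NADH dehydrogenase, went the other way on average, at 205 to 241 CPM in ivd1-2 against 166 to 299 CPM. Heat shock genes had a median of 0.93 (8 of 9 above 0) at low levels, and HSP17.6A, a small chaperone, had 0.484 to 2.11 CPM against 0 to 1.34 CPM. Glutathione transferases and antioxidant enzymes had a median of 0.22 (13 of 18). Iron homeostasis was at 0.08 (7 of 12) and jasmonate at 0.13 (11 of 16). With each library left out in turn, the median ran from 0.389 to 1.7 for heat shock, 0.0259 to 0.464 for mitochondrial dysfunction, 0.185 to 0.314 for glutathione transferases and antioxidants, -0.108 to 0.16 for iron and -0.0393 to 0.299 for jasmonate. The heat shock, mitochondrial and glutathione transferase lists were high in the same 3 replicate 1 libraries as the defence lists. The heat shock mean log2 CPM was 0.78, 0.38 and 0.08 in them, -1.41 to -1.15 in the remaining 5 libraries of the others and 0.09 to 0.71 in ivd1-2.

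Among secondary metabolism and growth lists, camalexin and indolic glucosinolate genes had a median of 0.24 (12 of 16 above 0), and the other lists lay below 0. The camalexin and indolic list had the same split as the defence lists. Its mean log2 CPM was 4.841, 4.535 and 4.077 in the 3 high replicate 1 libraries. It was 2.569 to 3.125 in the remaining 5 libraries of the others and 3.842 to 4.265 in ivd1-2. Its median ran from 0.0893 to 0.402 with each library left out in turn. In the camalexin and indolic list, MYB34, an activator of indolic glucosinolate synthesis, had 7.75 to 9.47 CPM against 8.80 to 14.6 CPM. Aliphatic glucosinolates were at -0.18 (0 of 16 above 0), flavonoids and phenylpropanoids at -0.19 (0 of 10), sulfur deficiency at -0.25 (1 of 10), abscisate and cold genes at -0.04 (9 of 23), and cell wall loosening at -0.02 (4 of 8). KIN2, a cold-induced gene, had 47.3 to 75.3 CPM in ivd1-2 against 58.4 to 126 CPM.

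The 24 libraries from darkness, which the rule did not use, showed which of these differences held there. For this, all 36 libraries were fitted together, with levels on the scale of that fit. In darkness 28.4% of 19457 genes passed in edgeR between ivd1-2 and the others, and the difference itself was not equal in light and darkness for 710 genes (3.65%), 397 higher in light (2.04%) and 313 lower (1.61%). That count rested on single ivd1-2 libraries. It was 422 and 231 without replicate 1 or 2 at 0 h, 297 and 281 without replicate 1 or 2 at 72 h of the cycle, and 2106 without replicate 2 at 72 h of darkness.

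IVD in darkness was 141 to 454 CPM in the 8 ivd1-2 libraries and 991 to 2419 CPM in the other 16. The libraries did not overlap, with a log2 fold change of -2.66 (SE 0.159, adjusted p = 3.44e-10, edgeR). The light value minus the dark value was 0.42 (SE 0.251, adjusted p = 0.427), which did not pass. MRD1 in darkness had 124 reads in ivd1-2 and 7 in the other 16 libraries, a ratio of 34.4 (95% exact interval 16.2 to 87.3), and its difference between light and darkness could not be fitted.

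HEI10 and MLO3 behaved otherwise. HEI10 in ivd1-2 had 1.47 and 2.04 CPM after 6 h of darkness and 12.9 and 8.80 CPM after 72 h, against 0.165 to 1.14 CPM in the 16 others. The log2 fold change was 3.60 in darkness (SE 0.239, adjusted p = 1.46e-09), and the light value was lower than the dark value by a log2 difference of -2.0 (SE 0.461, adjusted p = 0.0185, edgeR). MLO3 had 1.59 to 4.46 CPM in ivd1-2 in darkness against 101 to 820 CPM in the others. Its log2 fold change in darkness was -7.28 (SE 0.317, adjusted p = 4.66e-12), and the light value differed from it by 7.03 (SE 0.409, adjusted p = 1.47e-09, edgeR). In the light cycle, MLO3 was near the same low level in all 3 genotypes. DML1 was at -1.16 in darkness (SE 0.191, adjusted p = 0.000144), and its light value did not pass the test of a difference (0.48, SE 0.312, adjusted p = 0.470).

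BCAT3 and FRO3 also differed between light and darkness. BCAT3 was at -0.25 in light and 1.09 in darkness (SE 0.0889, adjusted p = 3.22e-08), a difference of -1.33 (SE 0.161, adjusted p = 5.95e-05, edgeR). FRO3, a mitochondrial ferric reductase, had 26.5 to 41.3 CPM in ivd1-2 against 19.4 to 38.4 CPM in light, a log2 fold change of 0.21 (SE 0.164). It was at -1.02 in darkness (SE 0.103, adjusted p = 5e-07), with a difference of 1.23 (SE 0.170, adjusted p = 0.000311, edgeR). The dark values of both genes average over times that were not alike. After 6 h of darkness, BCAT3 had a mean of 20.68 CPM in ivd1-2, 25.32 CPM in WT and 25.46 CPM in hml1-2. FRO3 then had 106.9, 110.3 and 109.2 CPM in the same order. At each later time, ivd1-2 was higher than WT and hml1-2 at BCAT3 and lower at FRO3. After 72 h, BCAT3 had 27.47, 9.309 and 8.08 CPM and FRO3 53.94, 211 and 165.3 CPM.

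**Figure D5:**
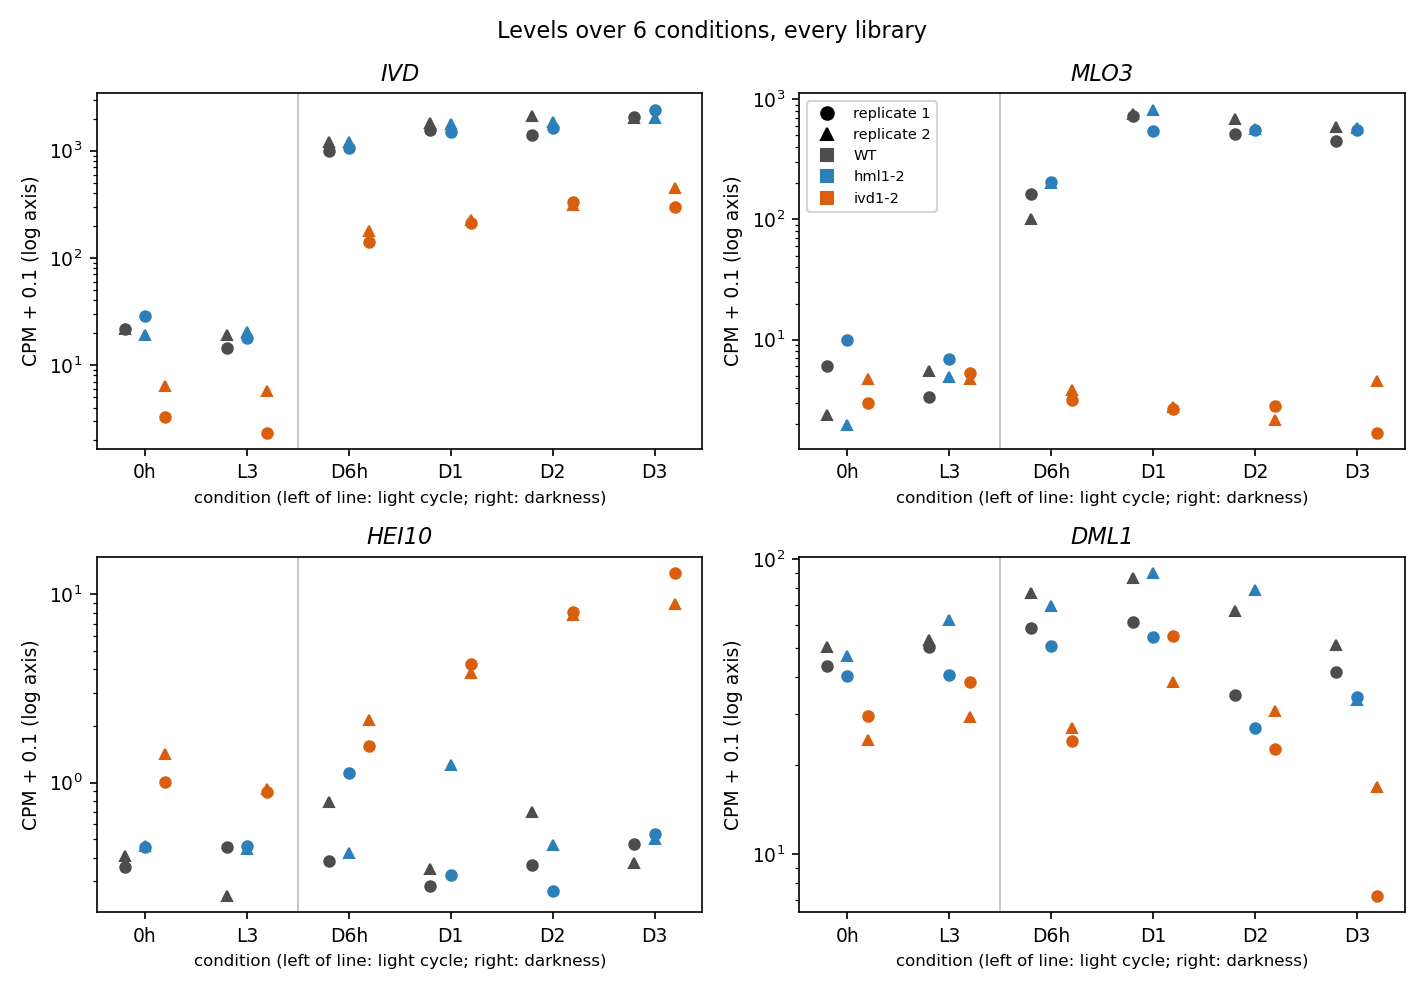
Levels of IVD, MLO3, HEI10 and DML1 in all 36 libraries as CPM plus 0.1 on log axes (vertical), by condition (horizontal), with the light cycle (0h, L3) left of the grey line and 6, 24, 48 and 72 h of darkness (D6h, D1, D2, D3) right of it. IVD is lower in ivd1-2 in every condition, MLO3 is lower only right of the line, and HEI10 is higher in every condition and highest at 72 h of darkness.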

How the data were processed

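RNA of rosette leaves was sequenced in 36 libraries, of which the 12 from the light cycle carry the main comparison. The authors deposited whole-number counts of reads per gene, made with HTSeq after Trimmomatic 0.30 and TopHat 1.4.1 on build TAIR10, per the submitters' processing notes. No source read here states the HTSeq strand setting. In the light-cycle libraries, reads in no gene were 0.5817 to 0.7824% and ambiguous reads 1.6981 to 1.9036% of all counts, and both were left out. Of 28774 gene codes, 28009 were given names from the TAIR10.1 annotation.

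Counts were filtered by filterByExpr (minimum count 10, minimum total 15), scaled by TMM and fitted with edgeR 4.0.16 in R 4.3.3. Benjamini-Hochberg adjusted p under 0.05 was called. Standard errors are the fold change over the root of the F statistic. DESeq2 1.42.0, other filters and scalings, a replicate block, other designs and left-out libraries served as alternatives. The fitting was tested on simulated counts. These were drawn independently for each library, without the split seen among the comparison libraries, so that test does not cover the split.

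The named genes are the strongest called genes, IVD with the annotated genes on each side, HML1, MLO3, ILA, AT5G11330, up to 4 genes of smallest p from each of 26 lists and, as few passed, the 10 genes of smallest p. The members and lists were chosen with earlier results of these data known. The fits to replicate 1 or 2 libraries and the test by replicate number were added after the data were seen.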

Additional observations from a re-analysis of the deposited data

Results flagged for a closer look

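The following single libraries lay far from the rest of their group on the log2 CPM scale, in 5 of 58 groups checked (29 genes); chance alone flags about 1 in 20. HML1 was at 6.69 in replicate 2 of ivd1-2 at 72 h, with the nearest other ivd1-2 library at 6.52. SAG101, a lipase-like partner of EDS1, was at 4.86 in the same library, with the nearest other at 4.43. MAF5, a MADS-box gene of the flowering repressor FLC family, was at 2.81 in replicate 1 of ivd1-2 at 72 h, with the nearest other at 0.678. MRD1 was at -3.23 in replicate 1 of hml1-2 at 72 h, the library with the single read, with the nearest of the other 7 at -3.72. Those 7 had 0 reads, and -3.72 is the value that the prior count gives them. Any single read would be flagged there, so the rate of 1 in 20 does not apply to it. HEI10 was at -2.1 in replicate 2 of WT at 72 h, with the nearest other at -1.54.

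For 6 of the 29 genes checked, the difference between ivd1-2 and the others was not equal in the light cycle and in darkness. This was a test of that difference itself (light minus dark, log2, edgeR adjusted p under 0.05). Over all genes it passed for 710 of 19457 (3.65%), and the remaining named genes were not checked here. MLO3, ILA and AT5G11330 were chosen with earlier results of these data known. The light minus dark value was -2.0 for HEI10, 7.03 for MLO3, -1.33 for BCAT3 and 1.23 for FRO3, as described above. It was also 0.777 for ILA and 0.455 for AT5G11330, which were at -1.44 (SE 0.0848, adjusted p = 3.44e-10) and 0.20 (SE 0.0702, adjusted p = 0.0374) in darkness. WT and hml1-2 were not alike at these genes in darkness. In the dark libraries, ILA had a median of 62.48 CPM in ivd1-2, 62.15 CPM in hml1-2 and 413.8 CPM in WT. AT5G11330 had 59.31, 64.17 and 38.65 CPM in the same order. The pooled dark values thus do not describe ivd1-2 against hml1-2 alone. At 72 h of darkness, ILA had a mean of 56.86 CPM in ivd1-2 and 88.85 CPM in hml1-2, and AT5G11330 47.6 and 61.54 CPM.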

How the results depend on the processing

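In the pooled comparison 1 gene was called higher and 1 lower with DESeq2 size factors, with no filter and with the replicate number as a block (IVD -2.31, adjusted p = 0.0132; MRD1 adjusted p = 0.000584, edgeR). It was 0 and 1 with a mean of at least 5 CPM, where MRD1 is not tested, 2 and 2 with DESeq2 and with all 36 libraries, and 0 and 0 with 1 coefficient per group (IVD adjusted p = 0.297, MRD1 0.320). With 1 library left out both counts ran from 0 to 1. The cause of these changes was not tested. DESeq2 called 2 genes at 0 h, 1 at 72 h, 8 against WT, 5 against hml1-2 and 5 between hml1-2 and WT, and the 36-library fit called 1, 1, 4 and 2 in the first 4 of these. The count against hml1-2 was 2 with the replicate block, and that between hml1-2 and WT ran from 1 to 3 over left-out libraries. Replicate deviations correlated above 0.1 in 12 of 15 pairs of groups, up to 0.874 between hml1-2 and WT at 0 h. In the other 3 pairs, each with ivd1-2 at 72 h, they were at -0.147, -0.144 and 0.0195. The values of 0.874, 0.766 and 0.758 were between the groups that hold the 3 high replicate 1 libraries. Whether the replicate number marks anything shared between groups was not tested. The block was kept as an alternative because not every pair passed 0.1.

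With replicate 1 libraries only, the counts were 0 and 0, and PR1 (-0.0693), EDS16 (-0.401), FMO1 (-0.271), SAG101 (-0.0833), PSBY (0.0645) and FRO3 (-0.00494) changed sign. With replicate 2 only, the counts were 2362 and 1389, and MLO3 (0.421) and AT3G45310 (0.205) changed sign. The test by replicate number called 716 genes in DESeq2. AT3G45310, near 0 throughout, was at 0.00165 (DESeq2 size factors), 0.00133 (no filter), 0.000947 (DESeq2), 0.00417 (replicate block) and 0.00247 (36 libraries), and from -0.11 to 0.0651 over left-out libraries. MLO3 ran from -0.352 to 0.0193 over those. The difference between light and darkness called 1232 genes in DESeq2, 1346 with the replicate block and 231 to 2106 over left-out libraries. Scaling moved the median of all genes from -0.0114 to -0.00896.

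Each group held 2 libraries, and MRD1, HEI10 and other genes near 1 CPM rest on few reads.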

Other observations

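AGL42 and MAF5, both MADS-box genes, are named because of their levels in the ivd1-2 replicates. AGL42 differed between these replicates at 0 h and 72 h, and MAF5 mainly at 72 h. AGL42 had 39 and 81 reads in the replicate 1 libraries of ivd1-2 at 0 h and 72 h, and 0 and 1 in replicate 2. It had at most 4 reads in any of the 8 other light-cycle libraries. In CPM, the ivd1-2 levels were 1.09 and 2.30 in replicate 1 against 0 and 0.0391 in replicate 2. In darkness, on the scale of all 36 libraries, AGL42 reached 1.21 CPM in replicate 1 of ivd1-2 at 24 h and 0.876 CPM in replicate 1 of WT at 48 h.

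MAF5, of the FLC family of flowering repressors, had 1.11 and 1.31 CPM in ivd1-2 at 0 h and 6.92 and 1.53 CPM at 72 h. It had 0.404 to 1.98 CPM in WT and 0.0382 to 0.666 CPM in hml1-2. All 4 ivd1-2 libraries were above all 4 of hml1-2, and they overlapped WT. Against hml1-2 alone DESeq2's Wald test called MAF5, with a log2 difference of 3.03 (adjusted p = 0.00695), and edgeR did not (2.96, adjusted p = 1).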
